A study of Mus musculus with 4 samples.

Results

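Mesothelin, mucin 16, uroplakin 3B, Wt1, Pax8 and several keratins are among the genes by which ovarian surface, mesothelial and Müllerian epithelium is usually recognised. Together with Krt14, a keratin of stratified epithelia, 10 genes were followed here in a mouse ovarian cancer line with and without decitabine. The members are Msln, Muc16, Upk3b, Wt1, Pax8, Krt7, Krt8, Krt18, Krt19 and Krt14, taken as the rows of the expression table with that single platform gene symbol, and for a gene with several rows the row with the highest mean. All 10 were measured, out of 22180 genes tested. BR5FVB1-Akt cells, labelled as ovarian cancer and grown in serum-containing medium, were either left without drug (2 arrays) or given 10 uM decitabine for 72 h (2 arrays), and each RNA was hybridised to 1 Affymetrix Mouse Gene ST array. The arrays come from 1 cell line, whose genotype and tissue of origin are not given in the sources used here, nor whether the controls received a vehicle. Samples are labelled as biological replicates, with no word on separate cultures, so a p-value here reflects the spread between these 4 arrays, which may be technical.

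The ovarian surface epithelium is a single cell layer continuous with the mesothelium that lines the peritoneum. Both derive from coelomic epithelium, carry the transcription factor Wt1 and the surface glycoproteins mesothelin and uroplakin 3B, and hold simple-epithelial keratins beside mesenchymal genes. Epithelia of Müllerian origin, such as the oviduct, are marked by Pax8. Keratins form filaments only as pairs of a type I and a type II chain. Krt8 with Krt18 is the first pair of simple epithelia, Krt7 and Krt19 are added in ducts and mesothelium, and Krt14 belongs to the basal layer of stratified epithelia. Decitabine takes the place of deoxycytidine in newly made DNA and depletes DNA methyltransferases, so that methylation is lost as cells divide.

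Across the 10 markers, Msln and Krt14 showed the largest differences, 1.81-fold and 1.73-fold higher with decitabine, and the simple keratins Krt8, Krt18 and Krt19 were 1.44-fold, 1.25-fold and 1.21-fold higher. Wt1 and Upk3b were 1.21-fold and 1.14-fold lower. Mesothelial genes thus lay on both sides, since Msln and Krt19 also mark mesothelium. Muc16 was 1.35-fold lower, with a wide spread between arrays, and Krt7 and Pax8 were 1.06-fold and 1.10-fold higher. In limma without an intensity trend and with Benjamini-Hochberg adjustment over all genes, 0 of the 10 passed an adjusted p of 0.05, a threshold that 0.144% of all genes passed (0.131% upward and 0.0135% downward). Before adjustment, which is used throughout for an unadjusted p under 0.05, 5 of the 10 were up and 1 was down, against 7.34% and 6.97% of all genes. In limma with an intensity trend, in which the expected variance depends on the level of the gene, 5 rose (Msln, Krt14, Krt8, Krt18 and Krt19) and 2 fell (Wt1 and Upk3b), against 3.68% and 3.6% of all genes and 7.28% in both directions together. Bright genes pass this second fit more often: 13.8% of genes with a control mean above the median over genes did, and 7 of the 8 markers above it. For each of the 10, both decitabine arrays lay on 1 side of both control arrays, which was so for 45.9% of all genes. The median log2 fold change was 0.21 over the 10 and 0.00 over all genes.

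The calls of the trend fit did not all hold with fewer arrays. Leaving out each array in turn in the trend fit, Msln (adjusted p between 0.00154 and 0.0287) and Krt14 (between 0.000494 and 0.0203) passed all 4 times. Krt18 did not pass without control replicate 1 (adjusted p = 0.0947) or control replicate 2 (0.105). Krt8 did not pass without control replicate 1 (0.0536), control replicate 2 (0.167) or decitabine replicate 2 (0.0598), and neither did Wt1 (0.0649, 0.135 and 0.0599). Krt19 passed only without decitabine replicate 2 (0.0417; leaving out control replicate 1, control replicate 2 or decitabine replicate 1 gave 0.262, 0.289 and 0.207). Upk3b passed in none of the 4 (adjusted p between 0.0932 and 0.205). When all 41345 rows of the table were fitted with a trend, Msln (adjusted p = 0.0414) and Krt14 (0.0358) passed and the other 8 did not.

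Levels are on the scale of the deposited values, read as log2 expression. Probes differ in brightness, so a level places a marker within the distribution of all genes on the arrays and does not rank markers by transcript number. Over genes, the control means had a lower quartile of 3.80, a median of 5.23 and an upper quartile of 7.32. Upk3b, Wt1, Krt18, Krt19 and Krt14 had control means above the upper quartile, Krt8, Krt7 and Msln lay between the median and the upper quartile, Muc16 was just below the median, and Pax8 was below the lower quartile. No background or detection level was set for any probe.

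**Figure D1:**
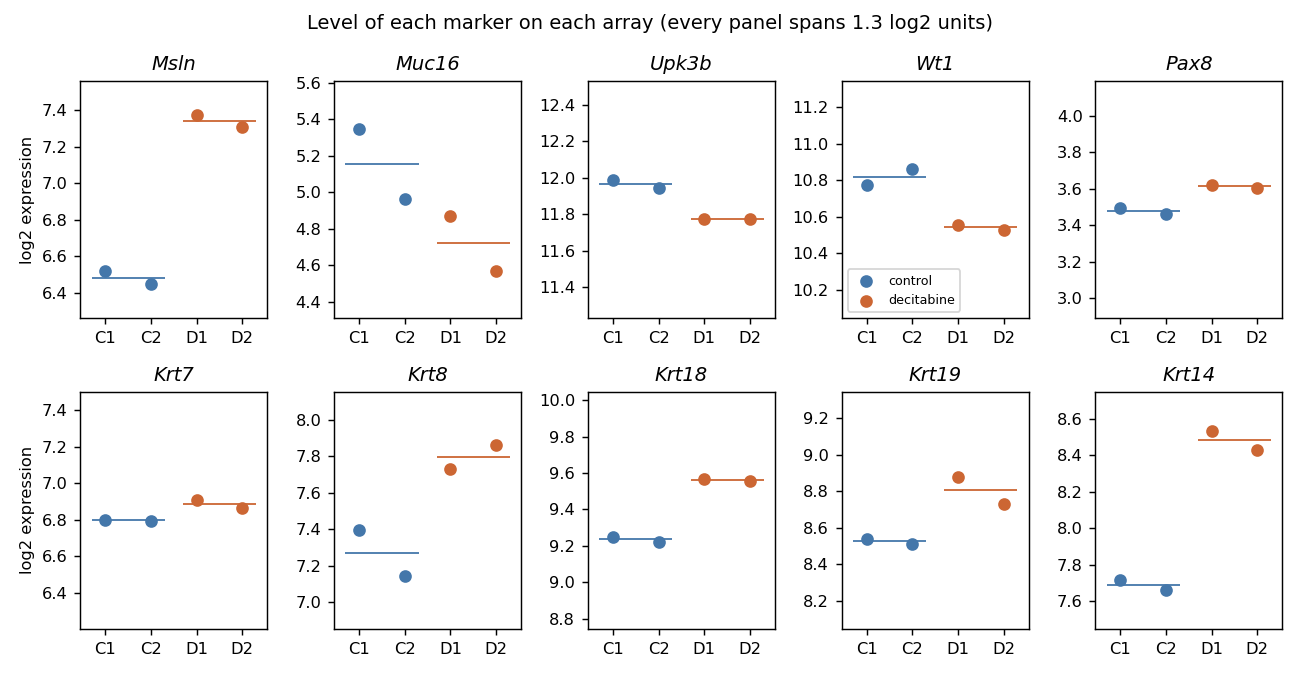
Log2 expression (vertical axis) of each of the 10 markers on control arrays C1 and C2 (blue) and decitabine arrays D1 and D2 (orange); horizontal lines are group means, and every panel spans the same range. Msln goes from 6.45 to 6.52 in the controls to 7.31 to 7.37 with decitabine, while Krt7 and Pax8 hardly part.

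Among the surface glycoproteins, Msln, a lipid-anchored protein of mesothelial and ovarian cancer cells that binds mucin 16, was at 6.52 and 6.45 in the controls and at 7.37 and 7.31 with decitabine. The decitabine arrays stood 0.79 above the higher control array, with gaps of 0.07 and 0.06 inside the groups. The log2 fold change was 0.86 ± 0.10 (SE, 2 arrays per group; 95% interval 0.61 to 1.11; adjusted p = 0.0762 without a trend and 4.66e-04 with it). In the text, each ± and, unless marked as of the trend fit, each 95% interval is from limma without a trend. This holds beside calls of the trend fit too. Ordered by rise, Msln was number 130 of the 22180 genes.

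Muc16, the large transmembrane mucin whose shed part is the serum marker of ovarian cancer, lay lower with decitabine, with a wide spread. It was at 5.35 and 4.96 in the controls and at 4.87 and 4.57 with decitabine. The lower control array was 0.09 above the higher decitabine array, less than the 0.39 between the controls. Its log2 fold change of −0.43 ± 0.18 (95% interval −0.90 to 0.03) passed in neither fit (adjusted p = 0.371 and 0.234), and it was −0.24 without control replicate 1 and −0.63 without control replicate 2. That interval, from the fit without a trend, holds both no change and a fall of nearly 0.90 on the log2 scale. The 95% interval of the trend fit was −0.84 to −0.02, before any adjustment over genes.

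Upk3b, a membrane protein of the urothelial plaque family that is also made by mesothelium, was at 11.99 and 11.94 on the control arrays. Both decitabine arrays read 11.77. The small step was uniform, and the log2 fold change was −0.19 ± 0.10 (95% interval −0.44 to 0.05; adjusted p = 0.445 without a trend and 0.0254 with it).

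Of the transcription factors, Wt1, the zinc finger protein needed for coelomic epithelium and gonad to form, was at 10.78 and 10.86 in the controls and at 10.56 and 10.53 with decitabine. Its groups were 0.22 apart, against 0.08 between the control arrays. The log2 fold change was −0.28 ± 0.10 (95% interval −0.53 to −0.02; adjusted p = 0.321 without a trend and 0.0106 with it). Pax8, the paired-box factor of Müllerian, thyroid and kidney epithelium, was at 3.50 and 3.46 in the controls and at 3.62 and 3.61 with decitabine. At so dim a level the difference of 0.14 ± 0.10 (95% interval −0.11 to 0.38) passed in neither fit (adjusted p = 0.585 and 0.812). Since no background level was set, the interval holds for the probe signal and does not bound a change of the transcript.

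Of the type II simple keratins, Krt8 was at 7.39 and 7.14 in the controls and at 7.73 and 7.86 with decitabine. Its control arrays were 0.25 apart, the widest such gap among the 5 keratins, and the groups were 0.33 apart. The log2 fold change was 0.53 ± 0.13 (95% interval 0.19 to 0.86; adjusted p = 0.210 without a trend and 0.0120 with it). Krt7, another type II chain, found in ducts, mesothelium and most ovarian carcinomas, was at 6.80 and 6.79 in the controls and at 6.91 and 6.86 with decitabine. Its difference was the smallest of the 10, at 0.09 ± 0.10 (95% interval −0.16 to 0.33; adjusted p = 0.736 and 0.750), and the upper bound of the interval is 1.26-fold.

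Krt18, the type I partner of Krt8, was at 9.25 and 9.22 in the controls and at 9.57 and 9.55 with decitabine. The 2 arrays of each group nearly coincided, and the groups were 0.31 apart. The log2 fold change was 0.33 ± 0.09 (95% interval 0.08 to 0.57; adjusted p = 0.248 without a trend and 0.00849 with it). A second row with the symbol Krt18 read 8.05 and 7.998 in the controls and 8.39 and 8.16 with decitabine, again higher, by 0.25 ± 0.14 in a fit of all rows (unadjusted p = 0.138). Krt19, the type I chain that lacks a tail domain and marks ducts and mesothelium, was at 8.54 and 8.51 in the controls and at 8.88 and 8.73 with decitabine, and the decitabine arrays differed by 0.15. Its log2 fold change was 0.28 ± 0.11 (95% interval 0.01 to 0.55; adjusted p = 0.335 without a trend and 0.0494 with it), so close to the threshold that the call hung on single arrays.

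Krt14, the type I chain of basal cells in stratified epithelium, was at 7.71 and 7.66 in the controls and at 8.53 and 8.43 with decitabine. The groups stood 0.72 apart, against gaps of 0.05 and 0.10 inside them. The log2 fold change was 0.79 ± 0.10 (95% interval 0.53 to 1.05; adjusted p = 0.0908 without a trend and 2.08e-04 with it). Its type II partner Krt5 had no row with a single symbol and was not analysed here. Keratins are similar in sequence, and reads of 1 chain by probes of another were not tested.

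**Figure D2:**
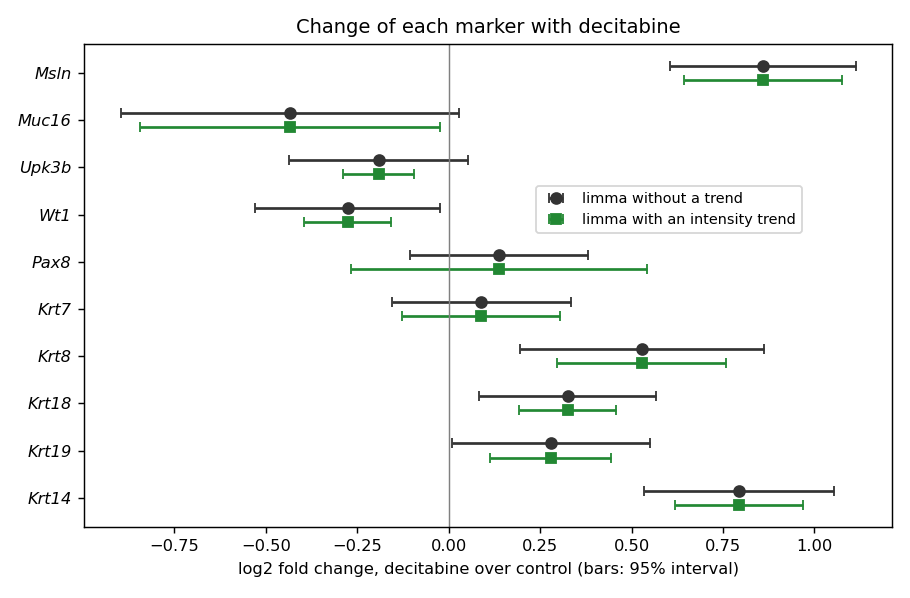
Log2 fold change of each marker, decitabine over control (horizontal axis), with 95% intervals from limma without a trend (black circles) and with an intensity trend (green squares), 2 arrays per group. Msln at 0.86 and Krt14 at 0.79 lie farthest from 0, Krt7 at 0.09 lies nearest, and Muc16, Upk3b and Wt1 lie below 0.

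**Figure D3:**
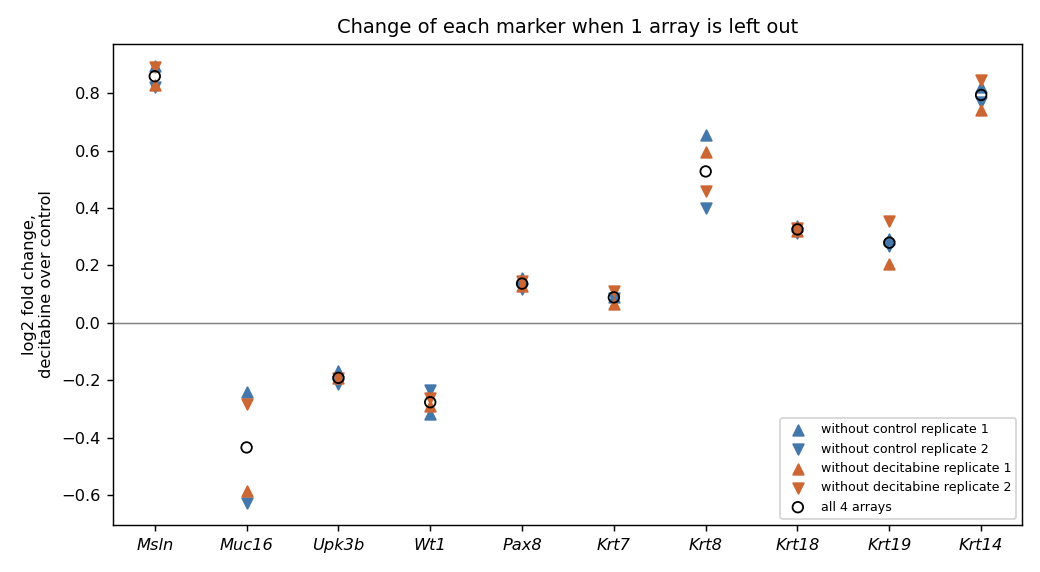
Log2 fold change of each marker (vertical axis) over all 4 arrays (open circles) and with 1 array left out (triangles, blue for a control array and orange for a decitabine array). No marker crosses 0, which was fixed in advance, since the groups of each marker do not overlap. Msln ranges from 0.82 to 0.90, Krt14 from 0.74 to 0.85, and Muc16, the widest, from −0.63 to −0.24.

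The keratin genes lie in a type I cluster on chromosome 11 and a type II cluster on chromosome 15, and Krt18 is the type I gene that stands beside Krt8 in the latter, per the RefSeq gene table of GRCm38.p6. Neighbours did not share a size of change. Krt8 and Krt18, adjacent coding genes, were higher by 0.53 and 0.33. Krt80, which precedes Krt7 in coding gene order, went from 5.50 and 5.37 in the controls to 6.30 and 6.26 with decitabine, a log2 fold change of 0.84 ± 0.10 (adjusted p = 0.0871 without a trend and 0.00263 with it), beside the 0.09 of Krt7. Between Krt19 and Krt14 lies Krt9, a keratin of palm and sole epidermis. It fell in the trend fit, from 6.05 and 6.25 to 5.51 and 5.35, by −0.72 ± 0.12 (adjusted p = 0.135 without a trend and 0.00960 with it). On either side of that trio, Krt15 was at 0.00 ± 0.19 and Krt16 at −0.09 ± 0.11. In the trend fit neither Krt80 nor Krt9 passed without control replicate 1 (adjusted p = 0.0513 and 0.0927) or control replicate 2 (0.0713 and 0.174).

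Of the remaining keratins, 25 of type I and 23 of type II were measured. In limma without a trend 0 of these 48 passed, with 4 up and 2 down before adjustment. With the trend 2 rose (Krt17 and Krt80) and 1 fell (Krt9). Those passing were 8% of type I and 4.35% of type II, against 7.28% of all genes. The medians were 0.00 for type I and 0.04 for type II, near the 0.00 of all genes. Krt17, a wound-induced keratin of skin appendages, was 0.95 ± 0.27 higher, but its decitabine arrays lay far apart at 5.59 and 4.80, above controls of 4.23 and 4.27, and it passed in the trend fit (adjusted p = 0.0351) and, of the fits with 1 array left out, only without decitabine replicate 2 (0.00179; otherwise between 0.125 and 0.302). Krt6a was lower by −0.75 ± 0.17 and passed in neither fit (adjusted p = 0.194 and 0.0557). Only 6 of these 48 keratins had a control mean above the median over genes, against all 5 keratin markers.

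CpG sites are where mammalian DNA is mostly methylated, and the sequence before the start site is shown for 4 of the markers, with the CpG sites in capitals and each read 5′ to 3′ on the strand of the gene. The windows are the 250 bases before the annotated start in RefSeq, GRCm38.p6. Krt8 (chr15:102004343-102004592, minus strand) and Krt18 (chr15:102027966-102028215, plus strand) are the filament partners that were both higher, Krt7 (chr15:101412153-101412402, plus strand) hardly differed, and Upk3b (chr5:136038246-136038495, plus strand) was lower.
Krt8: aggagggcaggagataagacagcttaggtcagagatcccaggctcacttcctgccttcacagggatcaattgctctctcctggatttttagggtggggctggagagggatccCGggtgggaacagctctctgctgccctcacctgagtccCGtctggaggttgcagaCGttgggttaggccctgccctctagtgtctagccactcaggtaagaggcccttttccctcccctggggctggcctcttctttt
Krt18: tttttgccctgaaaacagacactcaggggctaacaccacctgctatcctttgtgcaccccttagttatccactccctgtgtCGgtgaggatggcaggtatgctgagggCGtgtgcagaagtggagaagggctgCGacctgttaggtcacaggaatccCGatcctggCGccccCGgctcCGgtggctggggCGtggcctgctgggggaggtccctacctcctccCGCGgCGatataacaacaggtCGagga
Krt7: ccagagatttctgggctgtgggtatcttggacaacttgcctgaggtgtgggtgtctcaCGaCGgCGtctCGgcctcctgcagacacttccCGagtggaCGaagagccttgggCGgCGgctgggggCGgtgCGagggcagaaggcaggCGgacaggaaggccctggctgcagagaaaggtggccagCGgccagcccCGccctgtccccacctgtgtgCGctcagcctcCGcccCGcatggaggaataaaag
Upk3b: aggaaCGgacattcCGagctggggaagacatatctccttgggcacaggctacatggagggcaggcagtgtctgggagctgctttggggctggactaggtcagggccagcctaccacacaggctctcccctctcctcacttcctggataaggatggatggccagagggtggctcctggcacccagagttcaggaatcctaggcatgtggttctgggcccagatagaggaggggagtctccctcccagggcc

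A window was held for 7 of the 10 markers, and over 32851 windows of this length the median was 6 CpG sites, with quartiles of 2 and 16. Krt7 had 16 CpG sites, as many as or more than 76.5% of windows, and showed the smallest change. Krt18 had 12, Pax8 6, Krt14 5, Krt8 3, Upk3b 2 and Muc16 0. The number of sites and the change are given side by side, with no test over so few genes, and Wt1, which fell in the trend fit, is not among the 7. For Krt14 and Muc16 the window does not precede the outermost start of the gene in RefSeq. Methylation was not measured on these arrays.

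Other mesothelial genes were read from the same fits. Of 17 measured mesothelial markers, 0 passed in limma without a trend, with 3 up and 7 down before adjustment, and with the trend 2 rose and 7 fell. The median was −0.10. Those that fell were Lrrn4, Rspo1, Aldh1a2, Bnc1, Gpm6a, Nkain4 and Cldn15, and Pdpn and Efemp1 rose; all but Lrrn4 and Rspo1 are named after their values were seen. Lrrn4, a leucine-rich repeat membrane protein of mesothelium, went from 10.10 and 10.00 to 9.38 and 9.43, by −0.64 ± 0.10 (adjusted p = 0.123 without a trend and 1.66e-04 with it). Rspo1, a secreted enhancer of Wnt signalling needed in the developing ovary, went from 9.77 and 9.55 to 9.06 and 8.91, by −0.68 ± 0.13 (adjusted p = 0.150 and 8.46e-04). Aldh1a2, which makes retinoic acid, was lower by −0.64 ± 0.12. Of the 9, Lrrn4, Rspo1 and Aldh1a2 passed with every array left out in turn, and the number of list members passing was 3 and 4 without control replicates 1 and 2, and 8 and 6 without decitabine replicates 1 and 2. The list was bright: 13 of the 17 had control means above the upper quartile over genes, where 18.6% of all genes passed the trend fit and 9 of these 13 did. Calb2, a common mesothelial marker named after its value was seen, was dim at 3.04 in the controls and 3.09 with decitabine.

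The 13 measured genes of ovarian surface epithelium and coelomic development had a median of −0.20. In limma without a trend 0 passed, with 2 up and 4 down before adjustment, and with the trend 1 rose and 4 fell. Of the 13, 8 had control means above the upper quartile over genes, and 4 of these 8 passed the trend fit, against 18.6% of all genes there. Star, the carrier of cholesterol into mitochondria, went from 10.28 and 10.12 to 9.51 and 9.56, by −0.67 ± 0.11 (adjusted p = 0.126 without a trend and 2.00e-04 with it), and passed with every array left out. Amhr2, the receptor of anti-Müllerian hormone, went from 9.13 and 8.81 to 8.30 and 8.07, by −0.78 ± 0.16 (adjusted p = 0.162 and 0.00170), and did not pass the trend fit without control replicate 1 (0.0634). The others that passed, named after their values were seen, were Tcf21 and Nr2f2, which fell, and the retinaldehyde dehydrogenase Aldh1a1, which rose by 0.38 ± 0.11. The number passing was 1 and 2 without control replicates 1 and 2, and 6 and 4 without decitabine replicates 1 and 2.

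Müllerian and fallopian tube markers, the company of Pax8, showed no common direction, with a median of 0.03 over 13 genes. In limma without a trend 0 passed, with 4 up and 2 down before adjustment. With the trend the cadherin Cdh6 rose (0.56, SE 0.14 in that fit, adjusted p = 0.0342). The oestrogen receptor Esr1, named after its value was seen, fell (−0.52, SE 0.13 in that fit, adjusted p = 0.0411). Together they are 15.4% of the list, against 7.28% of all genes passing. With 1 array left out in turn, Cdh6 passed in none of the 4 trend fits and Esr1 only without decitabine replicate 1 (0.00908). Mecom, a transcription factor of the oviduct, was at 0.61 ± 0.10 (adjusted p = 0.125 without a trend). With the trend its SE was 0.18 (adjusted p = 0.0694). The other Pax genes, 8 of them, had a median of 0.01 and 0 passed in either fit, with 0 before adjustment, Pax7 being at −0.23 ± 0.13 and Pax1 at 0.20 ± 0.15.

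In the families of the surface glycoproteins, Upk1b, the tetraspanin that pairs with uroplakin III proteins, went from 9.29 and 9.30 to 10.11 and 10.18, by 0.85 ± 0.10 (adjusted p = 0.0762 without a trend and 2.31e-05 with it), opposite in sign to Upk3b, and passed the trend fit with every array left out. It was 1 of 5 uroplakins to pass with the trend and 0 passed without it (1 up and 0 down before adjustment), and Upk3bl, the coding gene after Upk3b, was at 0.19 ± 0.10. Of the 5 uroplakins 4 were positive, with a median of 0.10. Of 14 mucins and mucin-like genes, 1 passed with the trend and 0 without it (1 up and 0 down before adjustment): the adhesion molecule Mcam, at 1.20 ± 0.12 (adjusted p = 0.0609 and 3.86e-05), which also passed with every array left out. Muc13 was at −0.28 ± 0.12, and the list's median was −0.01. Among 5 mesothelin relatives and galectins, the sugar-binding galectins Lgals3 (0.80 ± 0.13) and Lgals1 (0.34 ± 0.09), which can bind mucin 16, rose in the trend fit (adjusted p = 0.00422 and 0.00153) and 0 passed without it, with 2 up and 0 down before adjustment. The median of these 5 was 0.26. With the trend 20% of the uroplakins, 7.14% of the mucins and 40% of these 5 passed, against 7.28% of all genes. Lgals3 did not pass the trend fit without control replicate 1 (0.103). Mslnl, the coding gene before Msln, was at −0.07 ± 0.13.

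Partners of keratin filaments (plakins, desmosome proteins and other intermediate filaments) had a median of 0.13 over 17 genes. In limma without a trend 0 passed, with 5 up and 2 down before adjustment, and with the trend 3 rose and 2 fell. Of the 17, 15 had control means above the median over genes. Of these 15, 5 passed the trend fit, against 13.8% of all genes there. Nes, the intermediate filament protein nestin, was higher by 1.04 ± 0.10 (adjusted p = 0.0609 without a trend and 1.17e-04 with it) and the nuclear lamin gene Lmna by 0.60 ± 0.11 (0.142 and 0.00165). Vim, the mesenchymal filament gene, also rose, and the desmosomal cadherins Dsg2 and Dsc2 fell, all named after their values were seen. Of the 5, Nes alone passed with every array left out; the number of list members passing was 1 without control replicate 1, 2 without control replicate 2 and 4 without each decitabine array in turn.

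Markers of epithelium in general did not pass: 0 of 18 in either fit, with 1 up and 0 down before adjustment and a median of 0.07. With the trend 7.28% of all genes passed, and whether 0 of 18 falls short of that share was not tested. The list was dim, with 8 of the 18 control means above the median over genes and 1 above the upper quartile. Rab25 was at 0.43 ± 0.13 and the tight junction gene Cldn4 at 0.34 ± 0.15. Named after their values were seen, Epcam was at 4.65 and 4.88 and Cdh1 at 5.40 and 5.70 in controls and decitabine, with adjusted p = 0.465 and 0.389 without a trend. Of 14 squamous and basal markers, among which Krt14 is usually found, 2 rose with the trend and 0 without it (2 up and 0 down before adjustment), and the median was 0.04. Those passing with the trend were 14.3% of the list, against 7.28% of all genes. Sprr1a, a precursor of the cornified envelope, went from 5.78 on both control arrays to 7.81 and 7.37, by 1.81 ± 0.17 (adjusted p = 0.0564 without a trend and 4.34e-05 with it), and passed the trend fit with every array left out. Ivl, another envelope precursor, was at 0.63 ± 0.17 (adjusted p = 0.0420 with the trend) and passed in none of the trend fits with 1 array left out. The basal factor gene Trp63, named after its value was seen, was at 4.42 in the controls and 4.43 with decitabine.

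**Figure D4:**
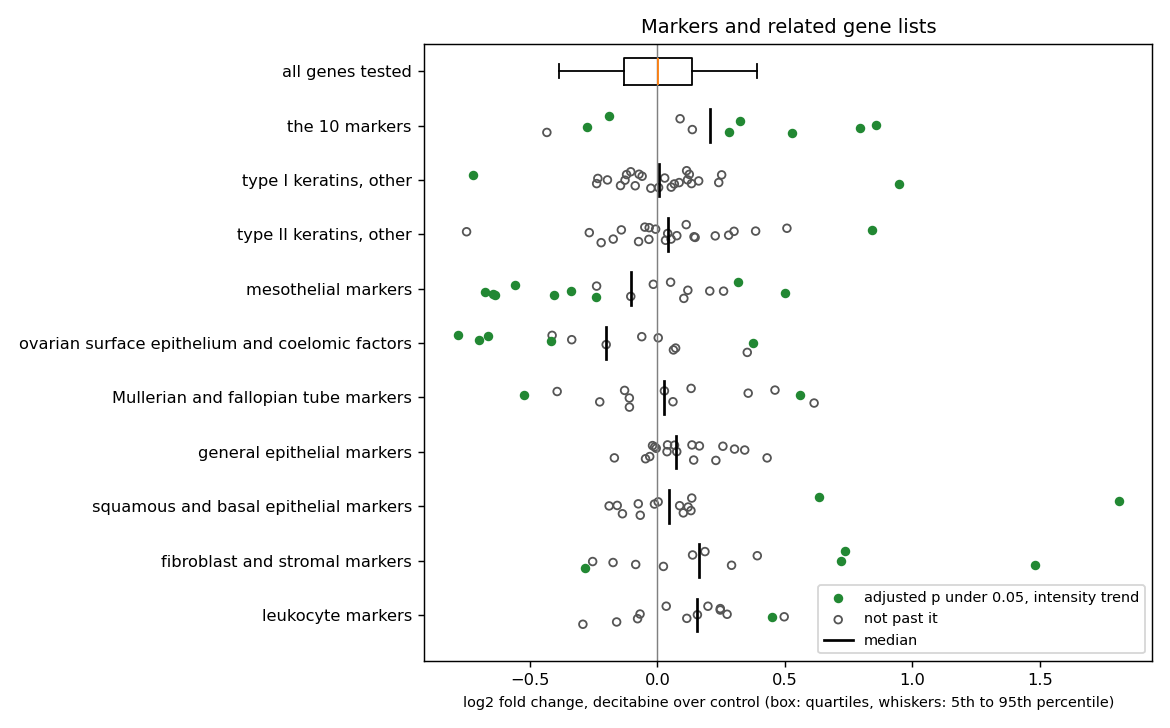
Log2 fold change, decitabine over control (horizontal axis), of the 10 markers and of related lists, 1 point per gene, filled where limma with an intensity trend gave an adjusted p under 0.05; black ticks are medians and the box shows all genes tested. The 10 markers have a median of 0.21, the mesothelial list −0.10 and the ovarian surface and coelomic list −0.20, and the other keratins centre on 0.00 and 0.04.

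Markers of other cells that a culture could hold were compared on the same arrays. In limma without a trend 0 passed in any of these 4 lists. With the trend 7.69% of the leukocyte list and 11.1% of the granulosa and steroidogenic list passed, against 7.28% of all genes. Of 12 fibroblast and stromal markers 3 rose and 1 fell with the trend (3 up and 1 down before adjustment), with a median of 0.16. Their mean log2 level was 8.13 and 8.04 in the controls against 8.38 and 8.32 with decitabine. Of the 12, 10 had control means above the median over genes. Of these 10, 4 passed the trend fit, against 13.8% of all genes there. Thy1 was at 1.48 ± 0.17 and the smooth muscle actin gene Acta2 at 0.72 ± 0.10, and both passed the trend fit with every array left out. The list did not move as 1, with 8 genes positive and 4 negative. Named after their values were seen, Tagln also rose in the trend fit (0.73 ± 0.19) and Pdgfra fell (−0.28 ± 0.10). The collagen gene Col3a1, also named after its value was seen, was at −0.25 ± 0.11. Of 13 leukocyte markers 1 rose, the lysosomal protein gene Cd68 at 0.45 ± 0.10, which passed the trend fit with an array left out only without decitabine replicate 2 (adjusted p = 0.0467). Itgam was at 0.50 ± 0.11, the pan-leukocyte gene Ptprc, named after its value was seen, was dim at 3.04 and 3.20, and the mean level was 4.31 and 4.20 against 4.28 and 4.48 (2 up and 0 down before adjustment). Of 9 endothelial markers 0 passed with the trend (Kdr at 0.38 ± 0.12 and Cdh5 at 0.43 ± 0.14; 2 up and 0 down before adjustment), with means of 4.47 and 4.38 against 4.55 and 4.59. Of 9 granulosa and steroidogenic markers 1 rose, the activin subunit gene Inhba at 1.08 ± 0.13, which did not pass the trend fit without control replicate 2 (adjusted p = 0.0583), while the hormone receptor gene Fshr was at 0.39 ± 0.14 (3 up and 0 down before adjustment); the means were 5.12 and 5.01 against 5.31 and 5.26. The means of the fibroblast, endothelial and granulosa lists were higher on both decitabine arrays than on both control arrays, by little in the endothelial list, and the means themselves were not tested. This did not set these cell types apart. It was also so for the 10 markers (7.78 and 7.70 against 7.98 and 7.92). The general epithelial, squamous, keratin partner, uroplakin, galectin, mucin and Müllerian lists were higher in the same way. The mesothelial and coelomic lists were lower. In the granulosa list 6 genes were positive and 3 negative. Star and Amhr2, at −0.67 and −0.78, stood in the coelomic list only, and the granulosa mean depends on which genes are listed. The part of these cell types in the changes of the 10 markers was not tested. In bulk RNA, a change in the share of a cell type and a change of RNA per cell cannot be told apart.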

How the data were processed

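RNA from 4 samples was purified on columns, biotin-labelled and hybridised, 1 sample per Affymetrix Mouse Gene ST array, per the labels' protocols. The authors deposited a table of 41345 rows of probe summaries, which were taken as log2 expression from their range of 0.554 to 13.26 as deposited. Log base, summarisation, background correction and normalization are not given in the sources used here, and how far the authors' steps compress small differences is unknown. Array medians ran from 4.60 to 4.66.

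Rows with 1 platform gene symbol (23521) were reduced to 22180 genes by highest mean, without a filter; all 10 members matched the RefSeq gene table by Entrez identifier. Of its columns, 0 belonged to another series. Sample titles gave the groups. limma 3.58.1 under R 4.3.3 fitted the group as 1 term (two-sided eBayes test, no trend), with Benjamini-Hochberg adjustment over all genes. Its variance prior had an SD of 0.121 on 3.07 degrees of freedom. The script was tested on simulated data. Figures used Python 3.11.15 and matplotlib 3.10.9.

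Members and lists were chosen with earlier results of these data known. All 10 members and the 2 genes of smallest p in each of 16 lists (212 genes in all) are named by rule. Alternatives were normalization, filters on level, the variance model, the replicate number as a block, the choice of rows, and leaving out each array; combinations with the trend were added after seeing the data. With 2 arrays per group, their number limits the precision.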

Additional observations from a re-analysis of the deposited data

How the results depend on the processing

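Each of the 10 fold changes kept its sign under every alternative run that measured the gene (18 to 21 per marker), while the number of calls changed with the setting. The sign was largely fixed in advance. Variance models, the block and filters on level leave a fold change as it is. With groups that do not overlap, leaving out 1 array cannot reverse it. In limma without a trend 32 genes passed over the whole table, with 0 of the 10 markers and 0 of 212 related genes. Centring the arrays gave 51 genes, 0 markers and 2 related genes. Testing genes above the 25th percentile of level gave 215, 2 (Msln and Krt14) and 8. Testing genes above the median level gave 1251, 4 (these, Krt8 and Krt18) and 28. Fewer genes were adjusted over, and standard errors changed too: that of Msln was 0.0991 over all genes and 0.0799 above the median level. The cause of the larger counts was not tested. Robust eBayes gave 18 genes. Testing all rows gave 0 genes (smallest adjusted p = 0.282), as did leaving out any 1 array (smallest adjusted p between 0.132 and 0.566).

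With the intensity trend 1615 genes (817 higher, 798 lower), 7 markers and 36 related genes passed. Added after seeing the data, the trend with quantile normalization gave 1721, 7 and 38, with genes above the median level 2128, 7 and 38, and with all rows 186, 2 and 8. Without control replicate 1 the trend gave 338, 2 and 13, without control replicate 2 399, 2 and 16, without decitabine replicate 1 1605, 5 and 32, and without decitabine replicate 2 1011, 4 and 29.

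With the replicate number as a block 0 genes passed (smallest adjusted p = 0.106), and with the block and the trend 1896 genes, 7 markers and 40 related genes did. The numbers could not be shown to pair the arrays: deviations from the group means of same-numbered arrays correlated at −0.0176 over genes, with 2 pairs. The other alternatives, quantile normalization and the mean of a gene's rows, left 0 markers past the threshold.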
